A study of Rattus norvegicus with 12 samples.

Results

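The comparison examined was knockdown of Slc25a26 against a negative control siRNA in unstimulated neonatal rat ventricular myocytes (NRVMs), the primary heart muscle cells of newborn Sprague-Dawley rats. It rests on 6 of the 12 libraries of the series, chosen by their labels: 3 replicates transfected with siSlc25a26 and 3 transfected with siNeg, neither group given phenylephrine. The other 6 libraries carried the same siRNAs and also received phenylephrine (PE), an α1-adrenergic agonist that makes cardiomyocytes hypertrophy, for 36 h, and they serve here only to set each effect beside its value under PE. All groups were cultured in DMEM supplemented with 1% ITS and antibiotics, and total RNA was sequenced in bulk. The sequence and number of siRNAs used against Slc25a26 are not given in the sources used here. The labels do not say that replicates came from separate cultures, so each p-value measures only the spread between these libraries, which may be technical.

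Slc25a26 encodes the mitochondrial carrier that brings S-adenosylmethionine (SAM), the methyl donor, into the matrix in exchange for S-adenosylhomocysteine. Inside mitochondria SAM serves the methylation of ribosomal and transfer RNAs and of proteins, and the synthesis of ubiquinone and lipoate, on which energy metabolism depends. Many of the genes that changed belong to another system, the type I interferon response. In that system RNA or DNA sensors switch on interferon genes, secreted interferon binds its receptor, and the kinases JAK1 and TYK2 pass the signal to a transcription factor complex that holds STAT2 and IRF9. That complex binds the interferon-stimulated response element (ISRE) and induces antiviral, antigen-presenting and feedback genes.

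The 6 libraries held between 25415568 and 28709049 estimated counts, with the siSlc25a26 libraries (27708544 to 28709049) somewhat deeper than the siNeg libraries (25415568 to 26870531). Levels are given as CPM, estimated counts scaled by TMM-adjusted library size, and 13829 of 18469 genes passed the filter on low counts. The first principal component took 74.9% of the variance and placed the siNeg libraries at -46.7 to -40.6 and the siSlc25a26 libraries at 43.2 to 44.6. Cardiomyocyte genes were abundant (Tnnt2, cardiac troponin T, averaged 4825 CPM in siNeg and 5072 CPM in siSlc25a26), and RNA typical of fibroblasts was abundant too, with Col1a1 at 13959 and 8309.7 CPM.

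Slc25a26 measured 34.9, 33.4 and 30.4 CPM in siNeg and 16.3, 15.2 and 15.2 CPM in siSlc25a26. Every knockdown library lay below every control library, a 2.11-fold fall (log2 fold change -1.08, SE 0.080, adjusted p = 1.08e-05 by edgeR's quasi-likelihood test). A single value from 3 against 3 libraries cannot go below p = 0.1 in a two-sided exact permutation test, so the p-values here rest on the fit across all genes. The libraries labelled siSlc25a26 PE did not show this fall: Slc25a26 averaged 98.6 CPM in siNeg PE and 98.2 CPM in siSlc25a26 PE, and the effect of the siRNA differed between the PE states by 1.06 on the log2 scale (adjusted p = 0.000466). Whether the labels of the PE libraries are right was not tested, nor was any other cause of this. Every value under PE and every difference between PE states below is for the libraries as labelled.

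Across the transcriptome, 1233 genes were higher in siSlc25a26 by more than 1.5-fold at an adjusted p under 0.05, which is 8.92% of the genes tested, and 996 were lower (7.2%). These shares are the background against which the gene lists below are read. Without the fold requirement, 3223 genes were higher (23.3%) and 2998 were lower (21.7%). The large shifts were mostly rises: 255 genes were higher by more than 4-fold and 46 lower, and 124 were higher by more than 16-fold against 1 lower. The median log2 fold change over all genes tested was 0.015. The 2 groups did not overlap in CPM for 7817 of the genes tested (56.53%). Called genes named by rule had to meet this, so their lack of overlap is no further support. Below, a gene is called higher or lower when it passed both the 1.5-fold limit and the test, and "at any fold" means the test alone.

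**Figure D1:**
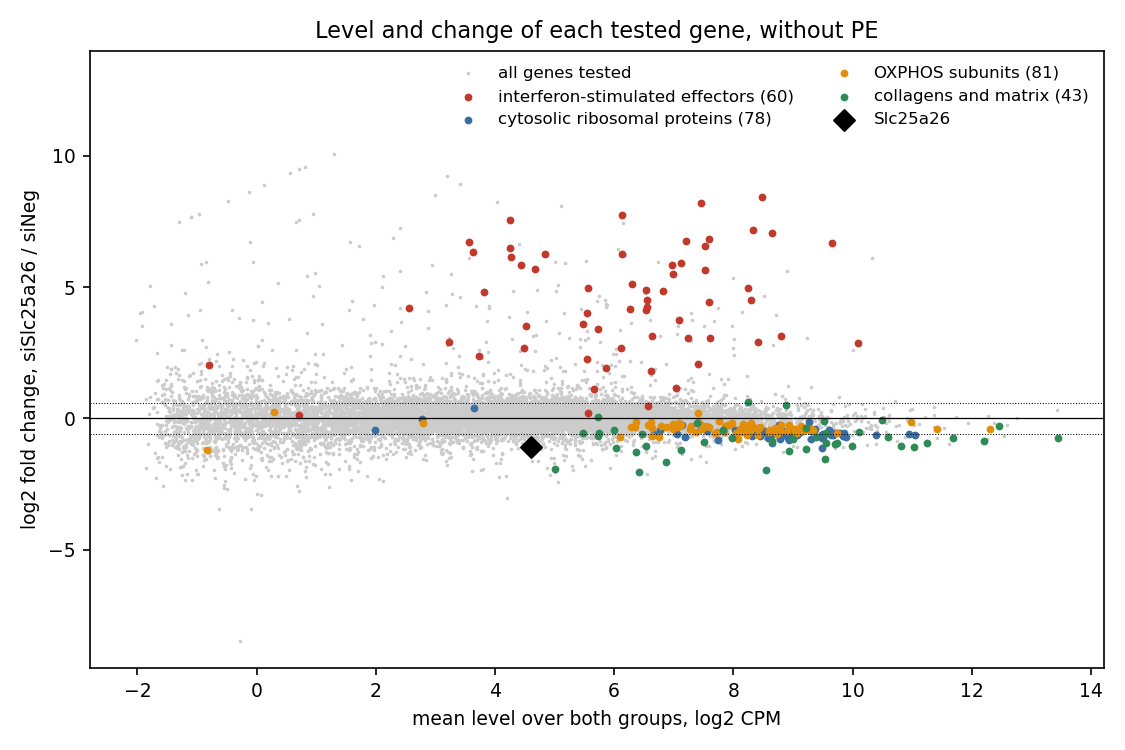
Each point is 1 of the 13829 genes tested, with its mean level over both groups on the x axis (log2 CPM) and its log2 fold change of siSlc25a26 over siNeg without PE on the y axis; dotted lines mark 1.5-fold. Interferon-stimulated effectors (red, 60 genes) mostly lie far above 0, while most cytosolic ribosomal proteins (blue, 78), OXPHOS subunits (orange, 81) and collagens and matrix genes (green, 43) lie below 0, and Slc25a26 (black) lies at -1.08.

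Promoter sequences were then compared between genes that rose, fell or were not called. In the RefSeq promoters (GRCr8 build), the 250 bases before the first listed start were searched on both strands for the ISRE core GAAANNGAAA, and 10764 of the genes tested had a promoter in that table. The motif was present in 83 of 930 promoters of genes called higher (8.93%), 16 of 709 of genes called lower (2.26%), 184 of 9125 of genes not called (2.02%), and 3.29% of all 27457 promoters. Among genes called higher it was present in 2.65% of promoters at a log2 rise of 0.58 to 1, 4.21% at 1 to 2, 22.5% at 2 to 4 and 43.5% above 4. The 10-base NF-kB motif GGGANTTTCC was present in 15 of the 930 promoters of genes called higher (1.61%), in 0 of the 709 of genes called lower, in 0.307% of those not called and in 0.317% of all promoters. The ISRE and NF-kB motifs were counted separately. A match is a description of these letters and not of a bound site.

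The 150 bases before the start of 6 of these genes are printed here to show the motifs in place, 5′ to 3′ on the strand of the gene, with ISRE and NF-kB matches in capitals. Ifit3 (chr1:241527176-241527325, plus strand) and Ddx60 (chr16:33208840-33208989, minus strand) were among the largest rises and hold 1 and 2 ISRE matches, which begin 44 bases and 73 and 39 bases before the start. Irf7 (chr1:205800024-205800173, minus strand), the regulator with the largest rise, and Lgals3bp (chr10:104127849-104127998, minus strand), a secreted glycoprotein with 1 of the 5 largest gains in CPM, each hold 1 ISRE match. B2m (chr3:129549180-129549329, plus strand), the light chain of MHC class I, holds both motifs, and Tnfaip3 (chr1:15543980-15544129, minus strand), a feedback inhibitor of NF-kB, holds the NF-kB motif from 67 bases before the start.
Ifit3: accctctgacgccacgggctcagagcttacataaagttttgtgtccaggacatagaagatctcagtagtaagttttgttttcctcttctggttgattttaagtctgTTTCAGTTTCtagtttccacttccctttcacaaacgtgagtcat
Ddx60: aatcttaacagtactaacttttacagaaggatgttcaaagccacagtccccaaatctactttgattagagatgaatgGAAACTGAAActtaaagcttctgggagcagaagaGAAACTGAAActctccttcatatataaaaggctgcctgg
Irf7: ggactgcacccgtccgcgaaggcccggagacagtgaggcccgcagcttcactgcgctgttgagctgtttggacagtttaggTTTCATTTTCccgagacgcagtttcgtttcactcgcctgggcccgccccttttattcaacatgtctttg
Lgals3bp: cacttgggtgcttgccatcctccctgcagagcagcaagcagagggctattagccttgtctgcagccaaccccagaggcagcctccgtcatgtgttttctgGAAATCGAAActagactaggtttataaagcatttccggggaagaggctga
B2m: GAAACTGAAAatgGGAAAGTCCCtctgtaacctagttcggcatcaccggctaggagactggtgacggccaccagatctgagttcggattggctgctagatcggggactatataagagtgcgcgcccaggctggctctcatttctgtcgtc
Tnfaip3: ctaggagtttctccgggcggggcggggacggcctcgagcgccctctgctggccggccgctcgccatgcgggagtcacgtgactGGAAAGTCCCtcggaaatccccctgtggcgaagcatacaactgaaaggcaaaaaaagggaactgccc

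The ISRE core was found in none of the 250-base windows of Mx1, Hsh2d, Tmprss2, Aim2, Ifnb1, Apol11a and Tnfsf10, which also rose. Slc25a26, Zbp1 and Mx2 have no entry in the promoter table.

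Transcripts of type I interferons were present in the knockdown libraries. Ifnb1, which encodes interferon-β, measured 0.0380, 0 and 0 CPM in siNeg and 1.75, 1.80 and 1.98 CPM in siSlc25a26. The siNeg libraries together held 1 count, giving a ratio of 145 (95% interval 25.1 to 5649, counting error only), with an adjusted p of 1.36e-05. The other 8 interferon genes in the table did not pass the filter on low counts, and of these Ifna4 and Ifna11 were at 0 in siNeg and averaged 0.501 and 0.328 CPM in siSlc25a26. The receptor subunit genes moved less: Ifnar2 went from 31.3 to 41.7 CPM (log2 0.41) and Ifnar1 from 76.7 to 82.0 CPM (log2 0.09676, adjusted p = 0.129).

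Of 24 sensors and adaptors of RNA and DNA, 23 were tested and 20 were higher, where 8.92% of all genes were, with a median log2 fold change of 2.38. The summed level of the list was between 469.9 and 489 CPM in siNeg and between 2640.4 and 2765 CPM in siSlc25a26. Dhx58 (LGP2, a cytosolic RNA sensor) measured 3.15, 3.63 and 3.41 CPM in siNeg and 216, 205 and 212 CPM in siSlc25a26. This 62.0-fold rise (log2 5.96, SE 0.069) was far larger than the spread within either group. Zbp1, a sensor of left-handed nucleic acids, measured 0, 0.0806 and 0.0383 CPM in siNeg and 20.3, 12.7 and 14.4 CPM in siSlc25a26, a ratio of 399 (95% interval 139 to 1973, counting error only). Aim2, the DNA sensor of an inflammasome, measured 0, 0.0403 and 0 CPM in siNeg and 4.28, 3.56 and 3.66 CPM in siSlc25a26. The RNA sensors Ifih1 (MDA5; 5.95 to 111 CPM) and Ddx58 (RIG-I; 32.7 to 535 CPM) rose, as did Eif2ak2 (PKR; log2 3.62), Cgas (log2 2.45), Tlr3 (log2 2.28) and the RNA editor Adar (125 to 355 CPM). The signalling adaptors moved little: Mavs had a log2 fold change of -0.17, Ticam1 of 0.0032 and Tmem173 (STING) of 0.36, and none of these 3 was called.

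Signal transducers downstream of the interferon receptor rose unevenly. Of 25 receptors, Janus kinases, STATs and feedback genes tested, 5 were higher and 0 lower past 1.5-fold, and 19 were higher at any fold, with a median of 0.40. Stat2, of the complex that binds the ISRE, measured 103, 109 and 93.8 CPM in siNeg and 706, 679 and 733 CPM in siSlc25a26. Every knockdown library lay far above every control library, at a log2 fold change of 2.79 (SE 0.067, adjusted p = 4.33e-09). Socs1, a feedback inhibitor of Janus kinases, rose 6.39-fold, and the kinase Jak2 and the feedback gene Cish had log2 fold changes of 0.94 and 0.79. Jak1 (187 to 218 CPM) and Tyk2 (24.3 to 33.4 CPM), the kinases that sit on the receptor, had log2 fold changes of 0.22 and 0.46 and were not called.

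Of the 8 interferon regulatory factors tested, 6 were higher, with a median log2 fold change of 1.42. Irf7, the factor that amplifies interferon production, measured 37.1, 41.4 and 31.1 CPM in siNeg and 2709, 2394 and 2516 CPM in siSlc25a26. The groups stood 69.5-fold apart (log2 6.12, SE 0.11, adjusted p = 8.75e-10). Irf9, the DNA-binding subunit of that complex, rose 4.599-fold from 27.3, 29.1 and 25.9 CPM to 128, 127 and 123 CPM. Irf8 (0.788 to 3.26 CPM) and Irf1 (25.7 to 103 CPM) rose as well, while Irf3, which is present before induction and activated by phosphorylation, went from 25.8 to 34.7 CPM (log2 0.43) and was not called.

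Interferon-stimulated effectors were the list with the largest median change among lists with more than 1 gene tested. The list held 62 genes, of which 60 were tested, 57 were higher and 0 lower, and the median log2 fold change was 4.47. Their summed level was between 1084 and 1245 CPM in siNeg and between 15081 and 16236 CPM in siSlc25a26, so that the knockdown libraries held 1281% to 1379% of the siNeg mean. Mx1, a GTPase that blocks viral ribonucleoproteins, measured 2.24, 2.34 and 1.61 CPM in siNeg and 830.3, 654 and 661 CPM in siSlc25a26, a 346-fold rise (log2 8.44, SE 0.1555). Ifit3, of the family that binds foreign RNA ends, measured 1.14, 1.21 and 1.23 CPM in siNeg and 389, 328 and 337 CPM in siSlc25a26. Ddx60, a helicase that assists RNA sensing, measured 0.532, 0.685 and 0.728 CPM in siNeg and 154, 132 and 129.7 CPM in siSlc25a26. All 3 had every knockdown library far above every control library, with fitted log2 rises of 7.73 to 8.44.

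The rise reached many functional classes of effector. The ubiquitin-like modifier Isg15 went from 5.94 to 798 CPM, its activating enzyme Uba7 from 4.33 to 245 CPM and its protease Usp18 from 19.1 to 590.4 CPM. Rsad2 (viperin) went from 3.29 to 380.3 CPM, Bst2 (tetherin) from 4.37 to 152 CPM and the 2′-5′ oligoadenylate synthetase Oas1a from 3.80 to 363 CPM. The guanylate-binding proteins Gbp1, Gbp2, Gbp4 and Gbp5 rose by log2 7.17, 4.52, 6.49 and 4.22. In absolute terms Mx2, a relative of Mx1, reached 1571, 1580.4 and 1656 CPM from 14.8, 20.3 and 11.4 CPM, and Lgals3bp reached 1968, 1842 and 1944 CPM from 272, 269 and 242 CPM. The 3 effectors that were tested and not called were Ifitm2 (log2 0.47), Ifitm1 (log2 0.20) and Oas3 (1.57 to 1.70 CPM).

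**Figure D2:**
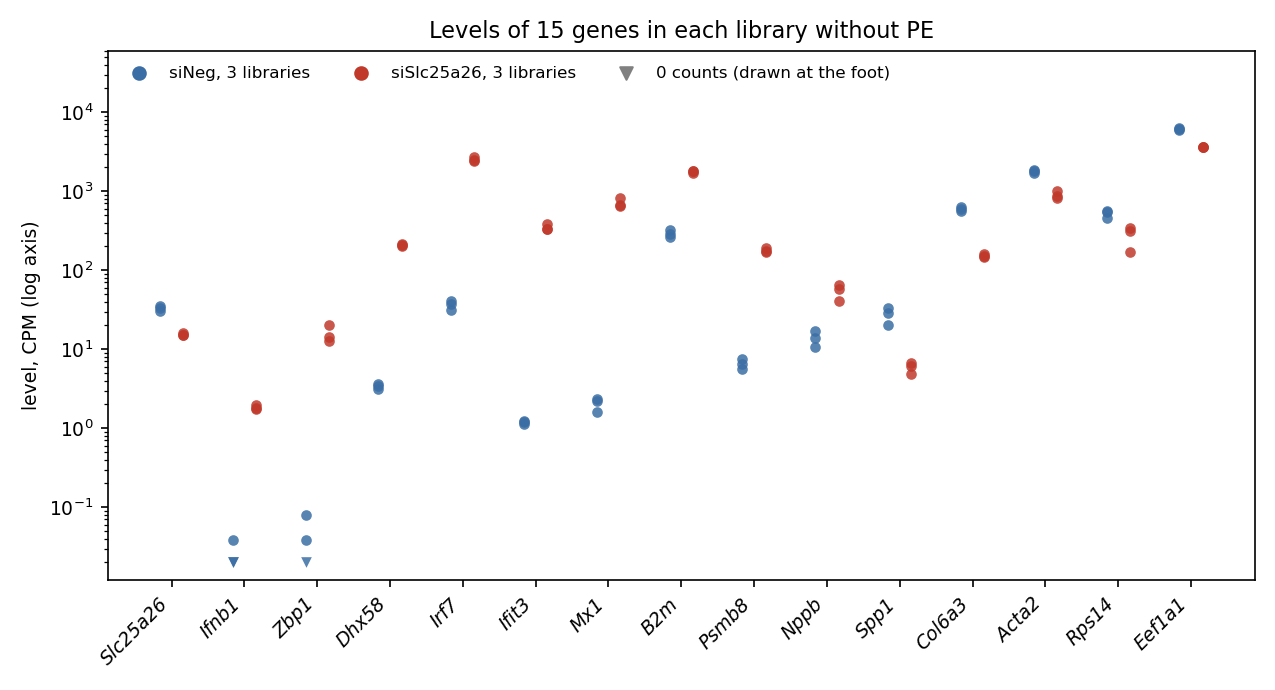
Level of 15 genes in each of the 6 libraries without PE, in CPM on a log axis; blue points are siNeg, red points siSlc25a26, and triangles at the foot are libraries with 0 counts. Irf7 sits between 31.1 and 41.4 CPM in siNeg and between 2394 and 2709 CPM in siSlc25a26, while for Slc25a26, Spp1, Col6a3, Acta2, Rps14 and Eef1a1 the red points lie below the blue ones.

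Antigen presentation through MHC class I rose as a group. All 22 listed genes were tested, 19 were higher, and the median log2 fold change was 2.995. The summed level was between 3365 and 3517 CPM in siNeg and between 8809 and 8997 CPM in siSlc25a26. RT1-S3, a class I heavy chain, measured 18.7, 21.4 and 16.6 CPM in siNeg and 935, 900.0 and 959 CPM in siSlc25a26, a 49.2-fold rise. RT1-T24-1 rose from 1.25, 1.45 and 0.767 CPM to 76.0, 66.2 and 69.9 CPM. The RT1 genes are a family of near-identical copies, so how counts were split among them is uncertain. B2m, their shared light chain, measured 289, 321 and 261 CPM in siNeg and 1785, 1722 and 1819 CPM in siSlc25a26 (6.11-fold). The immunoproteasome subunits Psmb8, Psmb9 and Psmb10 rose by log2 4.76, 4.33 and 2.89, the peptide transporters Tap1 and Tap2 by 4.02 and 2.72, and Nlrc5, the class I transactivator, by 4.03. The 3 members not called were the general chaperones Calr, Canx and Pdia3 of the endoplasmic reticulum, at log2 0.24, 0.21 and 0.1536.

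MHC class II, which professional antigen-presenting cells use, gave a mixed picture at low levels. Of 7 genes tested, RT1-Da, RT1-Ba and RT1-DMa were higher and Cd74 was lower. RT1-Da measured 0.0380, 0.0806 and 0.0383 CPM in siNeg and 0.947, 0.814 and 0.790 CPM in siSlc25a26, so its rise rests on few counts. Cd74, the invariant chain, fell from 15.2, 20.2 and 14.99 CPM to 7.64, 6.11 and 7.33 CPM (log2 -1.25, adjusted p = 0.000164).

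Chemokines and cytokines rose with the effectors. Of 26 tested, 19 were higher and 2 lower, with a median log2 fold change of 2.09. Cxcl10, the interferon-induced chemokine for T cells, went from 12.2 to 498 CPM, the monocyte chemokines Ccl2 and Ccl7 from 29.4 to 336 CPM and 4.90 to 110.2 CPM, Ccl5 from 0.856 to 17.2 CPM and Tnf from 0.210 to 10.4 CPM. Tnfsf10 (TRAIL), a death ligand, was at 0 counts in every siNeg library and measured 3.75, 2.95 and 3.16 CPM in siSlc25a26, which is at least 28.2-fold higher against a floor of 3 counts per library. Ccl12 was also at 0 in siNeg and at least 8.01-fold higher, and Cxcl6 measured 0.0380, 0 and 0 CPM in siNeg and 1.33, 1.09 and 0.862 CPM in siSlc25a26, a ratio of 86.3 (95% interval 14.8 to 3375, counting error only). The 2 that fell were Il15 (8.67 to 5.69 CPM) and the stromal chemokine Cxcl12 (34.2 to 22.5 CPM), each by 1.52-fold, and Cxcl12 was under 1.5-fold without siNeg replicate 3 (log2 -0.57) or siSlc25a26 replicate 1 or 2 (-0.56 and -0.56). Il6 and Il1b were too low to be tested, at 0.198 and 0.141 CPM in siSlc25a26.

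The NF-kB list moved less than the interferon lists. Of 17 subunits, inhibitors and target genes, 10 were higher and 0 lower, with a median log2 fold change of 0.63. With 1 library left out, between 7 and 9 were higher. Vcam1, an adhesion molecule, measured 8.59, 8.62 and 7.32 CPM in siNeg and 72.5, 63.3 and 67.8 CPM in siSlc25a26 (8.30-fold). Birc3, an inhibitor of apoptosis, rose 5.22-fold, and Tnfaip3 (A20) rose 3.56-fold from 10.6, 9.43 and 10.6 CPM to 37.1, 34.4 and 37.6 CPM. Nfkbia, the inhibitor that NF-kB itself induces, and the adhesion molecule Icam1 rose by log2 1.14 and 1.13. The subunits Rela (log2 0.1643), Nfkb1 (log2 0.52) and Relb (log2 0.44) were not called.

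In the complement system 6 of 12 genes tested were higher and 2 were lower. Cfb, of the alternative pathway convertase, rose 28.3-fold from 0.798, 0.403 and 0.268 CPM to 17.1, 12.8 and 11.7 CPM, and C4b rose 18.1-fold. C1s and C1r, the proteases of the C1 complex, went from 17.9 to 113 CPM and from 131 to 327 CPM. C1qa, which macrophages make, fell 1.84-fold (adjusted p = 0.00894), beside falls of other macrophage markers given below.

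Effectors of regulated cell death included 8 genes that were higher and 0 that were lower among 26 tested (median log2 0.35). Mlkl, the executioner of necroptosis, measured 8.89, 9.35 and 8.55 CPM in siNeg and 29.8, 27.6 and 29.9 CPM in siSlc25a26 (3.26-fold). Its kinase Ripk3 measured 6.88, 7.17 and 6.17 CPM in siNeg and 22.2, 20.8 and 20.4 CPM in siSlc25a26 (3.14-fold). Casp8 (2.09 to 4.61 CPM), Casp12 (4.13 to 9.99 CPM), Gsdmd (40.1 to 74.3 CPM), Fas (8.80 to 14.3 CPM) and Casp1 (0.117 to 0.738 CPM) rose as well. The initiator caspase Casp9 had a log2 fold change of -0.12 and was not called. Among 24 p53 targets 6 were higher (Eda2r, Pmaip1, Fas, Btg2, Zmat3 and Perp), and Cdkn1a, a cell cycle inhibitor, went from 192 to 252 CPM (log2 0.40) without passing 1.5-fold.

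The genes closest to the function of the carrier are given next. Of 35 genes of methionine, SAM and folate metabolism tested, 2 were higher and 2 lower past 1.5-fold, where 8.92% and 7.2% of all genes were. Their median log2 fold change was -0.13. At any fold 4 were higher and 11 lower, where 23.3% and 21.7% of all genes were. The summed level was between 1384 and 1471 CPM in siNeg and between 1299 and 1320 CPM in siSlc25a26. Mat2a, which makes SAM outside the liver, averaged 147 CPM in siNeg and 142 CPM in siSlc25a26 (log2 -0.04976, adjusted p = 0.398). Ahcy, which hydrolyses the S-adenosylhomocysteine left by methylation, went from 92.5 to 69.8 CPM (log2 -0.41, adjusted p = 0.000415) without reaching 1.5-fold. Nnmt, a methyltransferase that consumes SAM in the cytosol, fell 1.84-fold from 19.1, 18.9 and 20.3 CPM to 10.3, 10.7 and 10.7 CPM. Aldh1l2, a mitochondrial folate enzyme, fell from 86.0, 77.8 and 71.2 CPM to 51.6, 48.6 and 45.3 CPM, while Mthfd2l (2.07 to 4.20 CPM) and Mat1a (2.08 to 3.59 CPM) rose at low levels. Among 23 mitochondrial users of SAM, which include RNA methyltransferases and the ubiquinone and lipoate enzymes, 0 were higher and 0 lower past 1.5-fold, against 2 higher and 4 lower at any fold (2 lower without siNeg replicate 2 or without any 1 of the siSlc25a26 libraries). Lias, the lipoate synthase, was among the latter (log2 -0.35).

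Among the 42 mitochondrial carriers of the Slc25 family tested, 6 were higher and only Slc25a26 was lower past 1.5-fold, though 3 were lower without siNeg replicate 3 and 2 without siSlc25a26 replicate 3. Slc25a28 (mitoferrin-2), a mitochondrial iron importer, rose from 23.2, 22.7 and 21.01 CPM to 53.2, 50.5 and 54.3 CPM (2.36-fold), with no overlap between the groups. Its paralogue Slc25a37 (mitoferrin-1) rose from 8.85 to 13.5 CPM. The others were Slc25a43, Slc25a16, Slc25a39 (92.3 to 142 CPM) and Slc25a23, a calcium-regulated nucleotide carrier (166 to 256 CPM). The abundant adenine nucleotide carrier Slc25a4 and phosphate carrier Slc25a3 had log2 fold changes of -0.54 and -0.48 (adjusted p = 7.49e-05 and 8.01e-05) and did not pass 1.5-fold.

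Nuclear genes for the respiratory chain and ATP synthase were lower by a small amount across most subunits. Of 81 OXPHOS subunits tested, 79 had a negative log2 fold change, 71 were lower at any fold (21.7% of all genes were) and 6 passed 1.5-fold (7.2% of all genes did), with a median of -0.38. Their summed level was 36908, 38801 and 34324 CPM in siNeg and 27712, 28324 and 28004 CPM in siSlc25a26, and the groups did not overlap. By complex the medians were -0.31 for complex I (35 tested, 32 lower at any fold), -0.35 for complex II (4 of 4), -0.49 for complex III (9 of 9), -0.49 for complex IV (12 of 16) and -0.40 for ATP synthase (14 of 17). In complex I, Ndufc1 fell from 82.5, 90.6 and 81.3 CPM to 46.5, 54.8 and 55.98 CPM and Ndufb6 fell 1.58-fold. In complex III, Uqcr10 fell 1.61-fold from 135, 143 and 123 CPM to 85.1, 82.4 and 80.7 CPM. In complex IV, Cox7a2l, Cox6c and Cox7a2 had log2 fold changes of -0.64, -0.65 and -0.77, and for Cox7a2 replicate 3 of siSlc25a26 was lowest (219, 234 and 144 CPM against 331, 373 and 317 CPM in siNeg). Atp5f1b, the β subunit of ATP synthase, averaged 5726 CPM in siNeg and 4355 CPM in siSlc25a26 (log2 -0.39, adjusted p = 0.000416) and Sdha, of complex II, 638 and 505 CPM.

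The number of OXPHOS subunits past 1.5-fold rested on the method and the libraries used. By limma on log2(FPKM + 1) and log2(FPKM + 0.1) it was 3 and 4, with 55 lower at any fold by each. When edgeR tested against a 1.5-fold change itself, it was 0. It was 16 without siNeg replicate 3, where complex IV had 7 in place of 3 and complex III 4 in place of 1 (2 without siSlc25a26 replicate 3), and between 5 and 8 without any other library. Cox7a2 was under 1.5-fold without siSlc25a26 replicate 3 (log2 -0.58), as was Cox6c without siNeg replicate 2 or siSlc25a26 replicate 1 (log2 -0.5534 and -0.56). The genes encoded by mitochondrial DNA were not analysed here. The TCA cycle and pyruvate dehydrogenase list had a median log2 fold change of -0.27, with 25 of 37 genes lower at any fold and Pc, pyruvate carboxylase, past 1.5-fold (31.8, 31.2 and 27.7 CPM to 16.2, 17.2 and 17.9 CPM). Fatty acid oxidation had a median of -0.21, with 13 of 27 genes lower at any fold and Acsl1, which activates long-chain fatty acids, past 1.5-fold (259.7, 283 and 311 CPM to 178, 193 and 179.8 CPM), though not without siNeg replicate 3 (log2 -0.58), where 3 other members of that list passed, and 2 members passed without siNeg replicate 1 or siSlc25a26 replicate 1. The 75 mitochondrial ribosomal proteins had a median of -0.12, 30 of them lower at any fold and 0 past 1.5-fold. The number lower at any fold was 18 without siNeg replicate 2 or siSlc25a26 replicate 1, and without siNeg replicate 3 it was 40 with a median of -0.19. The PGC-1, ERR and PPAR regulators of these genes had a median of 0.016, with 0 of 15 higher and 0 lower past 1.5-fold.

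Cytosolic ribosomal protein genes had a more negative median than the respiratory subunits. Of 78 tested, 77 had a negative log2 fold change, 72 were lower at any fold and 32 passed 1.5-fold, with a median of -0.55. The summed level was 49145, 52640.1 and 44211 CPM in siNeg and 32107, 32324 and 32945 CPM in siSlc25a26, so that the knockdown libraries held 66.0% to 67.7% of the siNeg mean. In the large subunit 14 of 46 were lower past 1.5-fold. Rpl27a measured 807, 874 and 724 CPM in siNeg and 458, 465 and 460.1 CPM in siSlc25a26 (1.74-fold, adjusted p = 2.81e-05). Rplp1, of the stalk that recruits elongation factors, fell 2.19-fold, with replicate 3 of siSlc25a26 far below the other 2 (554, 558 and 242 CPM against 1028, 1052 and 886 CPM in siNeg). In the small subunit 18 of 32 were lower, among them Rps21 (280.2, 304 and 235 CPM to 153, 154 and 159 CPM) and Rps14, whose replicate 3 of siSlc25a26 also stood low (313, 345 and 171 CPM against 542, 568 and 459.6 CPM). Ribosomal protein genes have many processed pseudogenes, so reads could be split among copies.

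The count of ribosomal proteins past 1.5-fold was 51 without siNeg replicate 3 (of which 26 in the large subunit), 22 without siNeg replicate 2 (of which 10 in the small subunit) and 18 when libraries were scaled by their totals, while between 69 and 74 were lower at any fold with 1 library left out. Transcript length moved with the shift. By the length implied by the deposited counts and FPKM, genes in the shortest of 5 equal bins (195 to 1412 bases) had a median log2 fold change of -0.093 and those in the longest bin 0.11. The same trend was present in 1 control library. Set against the mean of the 3 siNeg libraries, the median log2 deviation of the shortest bin was 0.014, 0.062 and -0.073 in the siNeg libraries and -0.10, -0.078 and -0.076 in the siSlc25a26 libraries, and that of the longest bin was -0.042, -0.033 and 0.085 in siNeg and 0.12, 0.093 and 0.11 in siSlc25a26. Replicate 3 of siNeg thus lay close to the knockdown libraries. The shortest bin held 45 of 46 large and 32 of 32 small subunit proteins, 32 of 35 complex I genes and 16 of 16 complex IV genes. It also held 60 of 75 mitochondrial ribosomal proteins, whose median was -0.12. The part of transcript length in these results was not tested.

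Other parts of the translation machinery were less uniform. Eef1a1, the elongation factor that delivers aminoacyl-tRNA, measured 6176, 6326 and 6043 CPM in siNeg and 3581, 3633 and 3586 CPM in siSlc25a26 (1.72-fold lower, adjusted p = 3.32e-06). Eef2, the translocase, fell 1.64-fold and Eef1b2 fell 1.80-fold, whereas Eif1a, a scanning factor, rose 1.53-fold but was under 1.5-fold without siNeg replicate 1 or siSlc25a26 replicate 1 (log2 0.52 and 0.57). Over 47 initiation and elongation factors 1 was higher (2 without siNeg replicate 3 or siSlc25a26 replicate 3) and 4 lower, with a median of -0.11. Ribosome biogenesis and RNA polymerase I genes had a median of 0.043, with 3 of 61 higher (Noc3l, Twistnb and Wdr43) and 0 lower past 1.5-fold, or 5 higher without siNeg replicate 3. The 37 aminoacyl-tRNA synthetases had 0 higher and 0 lower past 1.5-fold. In the mTOR list 2 of 33 genes were higher and 1 lower, where 8.92% and 7.2% of all genes were. Those higher were Rictor (6.54, 9.59 and 13.1 CPM to 20.6, 16.7 and 16.6 CPM) and the S6 kinase Rps6kb1 (13.5, 16.7 and 19.7 CPM to 27.7, 27.1 and 28.3 CPM). The kinase's substrate Rps6 was lower (1.54-fold), though under 1.5-fold without siNeg replicate 2 or siSlc25a26 replicate 1 (log2 -0.5507 and -0.57).

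**Figure D3:**
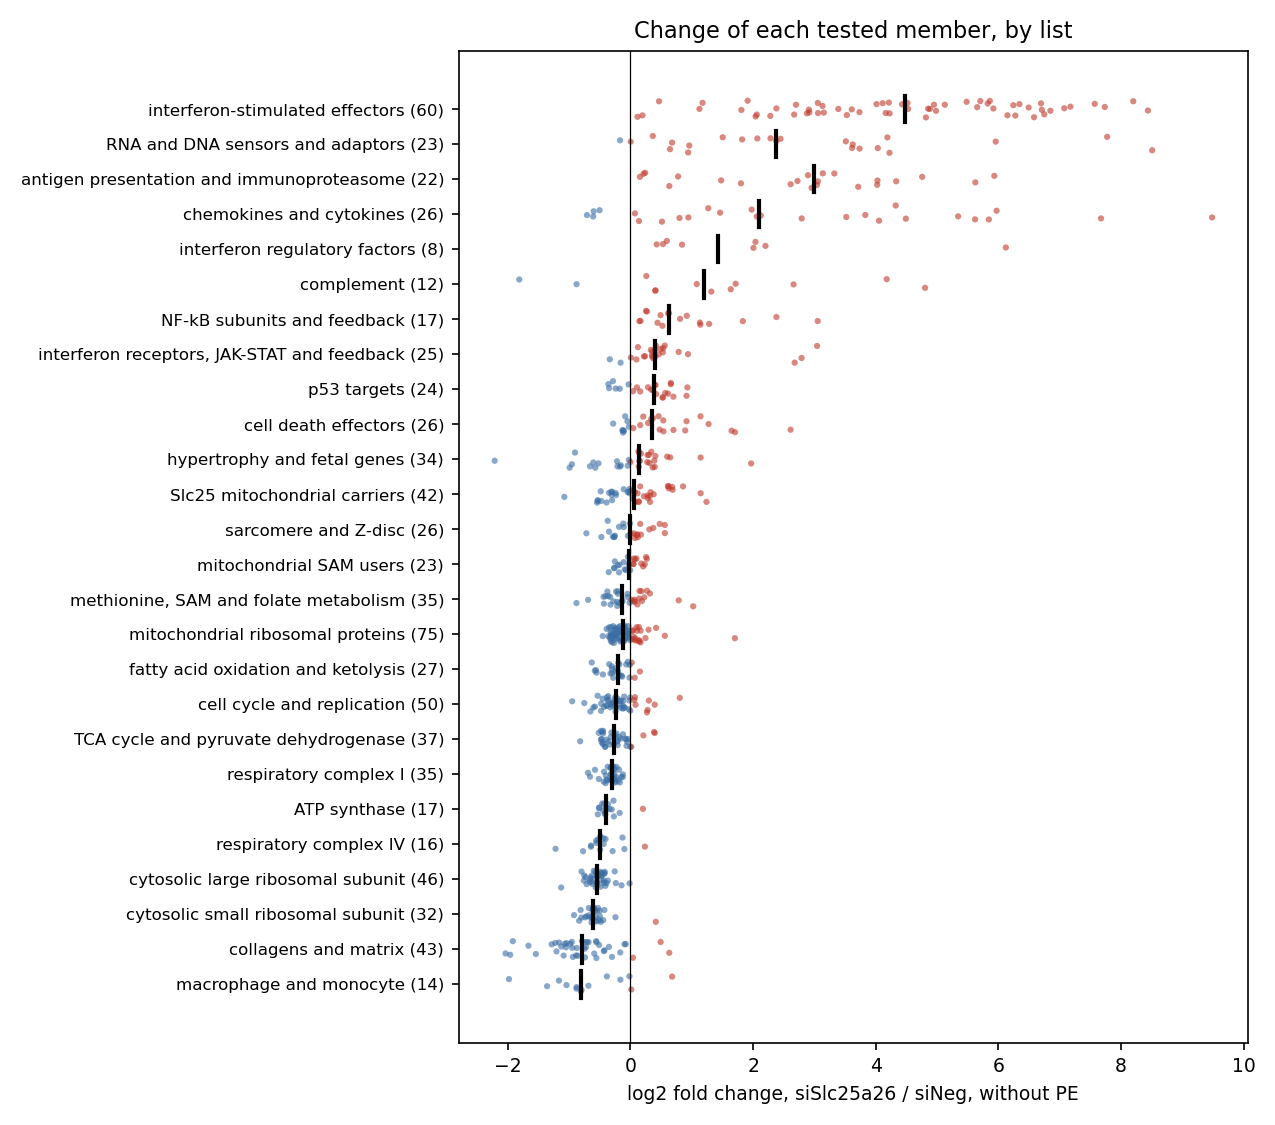
Log2 fold change of siSlc25a26 over siNeg without PE for every tested member of 26 gene lists. Each point is a gene (red above 0, blue below), and the black bar of each list is its median. Medians run from 4.47 for interferon-stimulated effectors to -0.80 for macrophage and monocyte markers. Those of the respiratory and ribosomal lists lie below 0.

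Markers of hypertrophy included rises and falls. Nppb (brain natriuretic peptide) measured 17.2, 13.8 and 10.8 CPM in siNeg and 65.4, 57.5 and 40.5 CPM in siSlc25a26, a 3.91-fold rise (log2 1.97, SE 0.20, adjusted p = 8.74e-05). Nppa (atrial natriuretic peptide) rose 2.21-fold from 136, 127 and 115 CPM to 340.5, 292 and 203 CPM, and replicate 3 of siSlc25a26 was lowest for both genes without reaching the siNeg range. Xirp2 rose (26.2 to 41.03 CPM), and Xirp1 rose 1.51-fold but was under 1.5-fold without siNeg replicate 2 or 3 (log2 0.58 and 0.57) or siSlc25a26 replicate 1 (0.58). Myh6, which encodes α-myosin heavy chain, measured 6925, 6720.5 and 8138 CPM in siNeg and 4219, 4108 and 5453 CPM in siSlc25a26 (1.58-fold lower). Myh7, the fetal β isoform beside it, went from 9912 to 12274 CPM (log2 0.31, adjusted p = 0.00378) without passing 1.5-fold, and reads of these close homologues can be hard to assign. The atrial light chains Myl4 (104 to 55.6 CPM) and Myl7 (31.2 to 20.5 CPM) fell, Acta1 did not pass the test (log2 -0.52, adjusted p = 0.0803), and Spp1 (osteopontin) fell 4.65-fold from 28.4, 33.6 and 20.3 CPM to 6.63, 6.18 and 4.92 CPM. In all, 4 of 34 genes were higher (2 without siNeg replicate 2 or without siSlc25a26 replicate 1) and 6 lower.

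The contractile apparatus held few calls. Of 26 sarcomere and Z-disc genes 0 were higher and 1 was lower past 1.5-fold, though 2 were higher without siSlc25a26 replicate 3 and 1 without siNeg replicate 3. Myom2, an M-band protein, fell from 276, 284 and 262 CPM to 194, 144 and 162 CPM. Tnnt2, Actn2 and Ttn had log2 fold changes of 0.072, 0.11 and 0.12. Among 39 genes of calcium handling and excitation, Gja5 (connexin 40) rose 2.19-fold from 82.0, 84.3 and 109 CPM to 178, 204 and 220.2 CPM. Hcn4, the pacemaker channel, rose from 93.4, 82.8 and 102 CPM to 177, 153 and 185 CPM, and Chrm2, the muscarinic receptor, and Kcnj5, of a potassium channel it opens, rose as well. Kcnip2, a subunit of the transient outward potassium channel, fell 2.93-fold from 59.9, 82.3 and 55.4 CPM to 17.4, 23.6 and 26.5 CPM. Hcn2 fell 1.51-fold but was under 1.5-fold without siNeg replicate 2 (log2 -0.54) or siSlc25a26 replicate 2 (-0.58). Atp2a2, the sarcoplasmic calcium pump, and Ryr2, the release channel, had log2 fold changes of 0.023 and -0.032.

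Collagens and other matrix genes were lower across most of their list. Of 43 tested, 29 were lower and 1 higher past 1.5-fold, where 7.2% of all genes were lower, with a median log2 fold change of -0.79, and the summed level was between 56833 and 62068 CPM in siNeg and between 33993 and 36768 CPM in siSlc25a26. Col1a1, the main fibrillar collagen, measured 14927, 13403 and 13548 CPM in siNeg and 8985, 7817 and 8127 CPM in siSlc25a26 (1.68-fold lower, adjusted p = 5.45e-05). Col3a1 fell 1.83-fold. The largest falls were in Col15a1 (151, 136 and 126 CPM to 31.7, 32.4 and 36.5 CPM), Col6a3 (628, 559.8 and 592 CPM to 150, 148 and 158 CPM) and Col11a1 (45.95, 48.2 and 57.7 CPM to 12.4, 13.4 and 14.3 CPM), by 4.10-fold, 3.90-fold and 3.78-fold. In each of these genes all siSlc25a26 libraries lay below all siNeg libraries, as the rule for naming them required. Fbn1 (fibrillin-1; 1112 to 382 CPM), Eln (elastin; 1381 to 658 CPM) and Fn1 (fibronectin; 4136 to 2472 CPM) fell too, while the laminins Lamc1 and Lama2 and the protease inhibitor Timp1 had log2 fold changes of -0.078, -0.0979 and 0.040. Mgp, an inhibitor of calcification, was the member that rose (237 to 368 CPM), and it was just under 1.5-fold without siSlc25a26 replicate 3 (log2 0.58).

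Markers of several cell types other than cardiomyocytes were lower alongside the matrix genes. In bulk RNA, fewer cells of a type and less RNA per cell cannot be told apart. Of 14 fibroblast markers, 10 were lower, and their summed level was between 22764 and 24894 CPM in siNeg and between 12912 and 14537 CPM in siSlc25a26. Col1a1 and Col3a1, already given among the matrix genes, are on this list and made up most of that sum. They averaged 13959 and 6123 CPM in siNeg, and 8309.7 and 3337 CPM in siSlc25a26. The list's largest fall was in Fap, a membrane protease (2.70, 2.46 and 2.80 CPM to 0.806, 0.984 and 0.754 CPM), and the surface protein Thy1 fell from 27.1, 25.6 and 21.96 CPM to 11.1, 10.3 and 7.58 CPM. Markers of the list that were not called included Pdgfra (71.7 to 69.6 CPM), Tcf21 (36.9 to 48.7 CPM) and Ddr2 (106 to 95.2 CPM). Of 12 smooth muscle and pericyte markers 6 were lower, namely the contractile genes Acta2, Tagln, Myh11, Cnn1 and Lmod1 and the receptor Notch3. Des and Cspg4 had log2 fold changes of -0.026 and -0.031. The log2 fold change was positive for 2 members, at most 0.63, and 1 member was higher at any fold. Acta2 measured 1854, 1717 and 1781 CPM in siNeg and 879, 813 and 999 CPM in siSlc25a26. Of 14 macrophage and monocyte markers tested 9 were lower, and the sum of the list was between 138 and 169 CPM in siNeg and between 77.2 and 85.9 CPM in siSlc25a26. Lyz2 went from 93.5 to 45.4 CPM, Cd68 from 14.98 to 8.14 CPM and Mrc1 from 2.32 to 0.586 CPM, whereas Ptprc (0.637 to 0.641 CPM) and Fcgr1a (1.42 to 1.40 CPM) were not called and Cd163 had at most 1 count in any library. The part of these cell types in the other results was not tested.

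Cardiomyocyte markers gave a sum of 83.8% to 91.8% of the siNeg mean in siSlc25a26, with 1 of 14, Myh6, lower past 1.5-fold. The sum averaged 36195 CPM in siNeg and 31322 CPM in siSlc25a26, of which Myh6 held 7261 and 4593.5 CPM. The log2 fold change was positive for 6 of the 14 and negative for 8. Endothelial markers were low throughout, at between 54.9 and 59.8 CPM in siNeg and between 46.95 and 49.5 CPM in siSlc25a26 when summed. Of 9 tested 2 were lower, Esam and Tie1 (only 1 gene without siNeg replicate 1 or siSlc25a26 replicate 2). Lymphocyte markers were near 0 (Cd3e had 0 counts in all 6 libraries), although Cd8a (0.235 to 0.629 CPM) and Cd4 (4.67 to 2.24 CPM) passed the test in opposite directions, the call of Cd8a being lost without siNeg replicate 1 or siSlc25a26 replicate 1. Of 10 epicardial and mesothelial markers 2 were higher (Krt19 and Krt18, or 1 gene without siNeg replicate 2 or siSlc25a26 replicate 1 or 2) and 3 lower (Msln, Upk3b and Upk1b), and of 7 Schwann and neuronal markers tested 3 were lower (Prph, S100b and Tubb3). Globin genes were too low to test, while Slc4a1, the red cell anion exchanger, went from 0.0128 to 3.16 CPM, with 1 count in the siNeg libraries. Kit was the only neutrophil and mast cell marker tested (13.3 to 13.7 CPM).

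**Figure D4:**
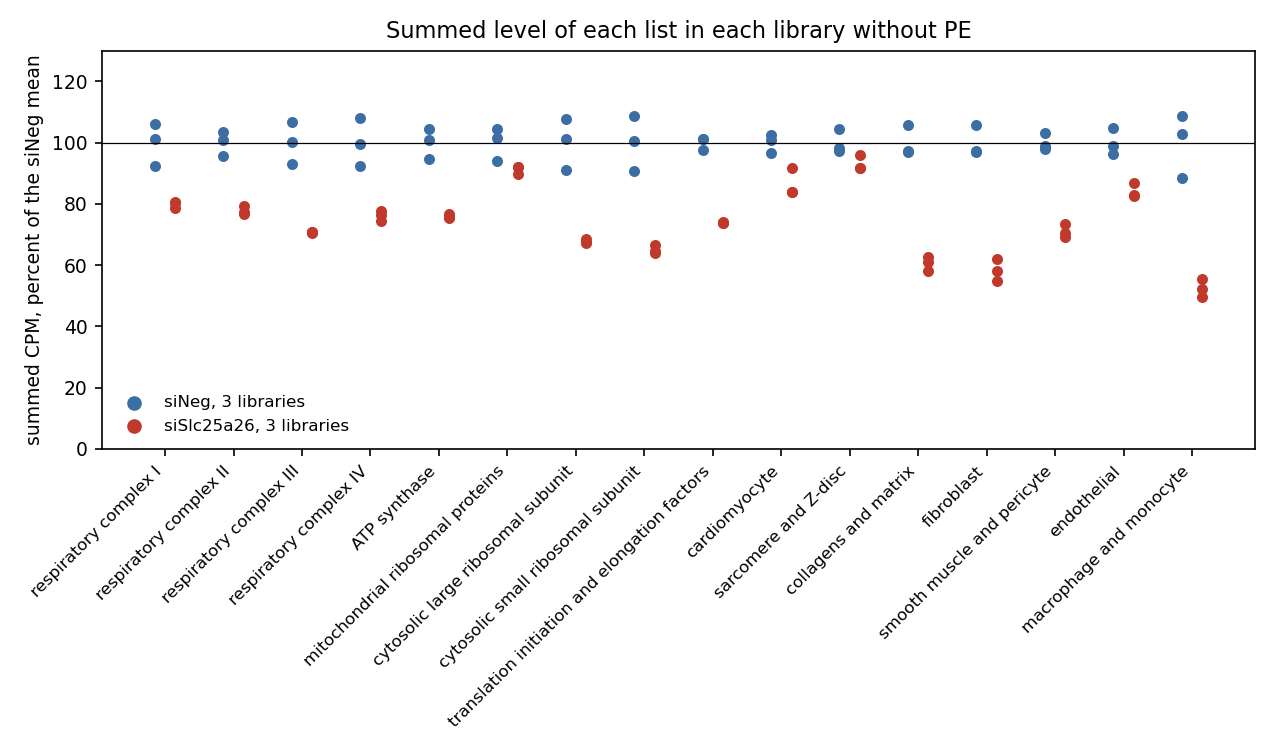
Summed CPM of 16 gene lists in each library without PE, as a percent of the mean of the 3 siNeg libraries (blue siNeg, red siSlc25a26). The red points of the respiratory complexes, the cytosolic ribosomal subunits and the translation factors lie below the blue ones, and collagens, fibroblast and macrophage markers lie lowest, while the siNeg libraries spread from 90.7% to 109% for the small ribosomal subunit.

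Several other lists held scattered calls, to be read beside the 8.92% of all genes that were higher and the 7.2% that were lower. In the cell cycle list 4 of 50 genes were lower (E2f1, E2f8, Kif20a and Ccnd2) and Cdkn1c, a cyclin-dependent kinase inhibitor, was higher (39.5, 45.1 and 45.6 CPM to 70.2, 73.6 and 83.5 CPM), with a median of -0.24. E2f1, which drives entry into S phase, fell 1.93-fold from 28.4, 26.9 and 25.6 CPM to 14.4, 13.7 and 13.7 CPM. Among 33 genes of the ATF4 integrated stress response Atf3 (7.33, 8.14 and 7.90 CPM to 20.1, 19.1 and 19.5 CPM) and Ddit3 (CHOP; 47.1 to 78.5 CPM) were higher and the proline enzyme Pycr1 was lower (2 genes were lower without siNeg replicate 2 or 3 or siSlc25a26 replicate 1 or 2), while Asns, Trib3 and Psat1 had log2 fold changes of -0.45, -0.32 and -0.13 and Atf4 itself of 0.13. Endoplasmic reticulum chaperones had 0 of 22 higher and 0 lower past 1.5-fold (10 higher and 1 lower at any fold, or 2 lower without siNeg replicate 1 or 3 or siSlc25a26 replicate 3). Of 22 NRF2 antioxidant genes 1 was higher (Osgin1, or 2 genes without siNeg replicate 1 or siSlc25a26 replicate 3) and 4 lower, including the glutathione transferases Gsta4 and Gstp1 and Nqo1, a quinone reductase that fell 2.23-fold from 209, 176 and 190.2 CPM to 80.0, 94.0 and 83.8 CPM. The median of the NRF2 list, 0.056, lay on the other side of 0 from these falls.

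In glycolysis and glucose uptake 1 of 25 genes was higher and 2 lower. Slc2a4 (GLUT4, the insulin-regulated glucose transporter) fell 2.65-fold from 89.8, 122 and 72.0 CPM to 40.5, 32.7 and 33.6 CPM. The muscle phosphoglycerate mutase Pgam2 fell 1.55-fold, and Aldoc, an aldolase, rose 1.72-fold from 208, 169 and 199.9 CPM to 303, 348 and 343 CPM. Of 31 cholesterol and fatty acid synthesis genes 3 were higher and 5 lower. Those higher were Stard4, Fdft1 and Idi1, the last under 1.5-fold without siNeg replicate 1 or 2 (log2 0.53 and 0.58) or siSlc25a26 replicate 2 (0.54). The falls included the desaturase Scd (42.6, 51.7 and 34.6 CPM to 22.9, 24.9 and 23.2 CPM) and the sterol enzymes Lss and Mvk. In the constitutive proteasome 2 of 33 genes were higher, Psme4 (73.4, 103 and 136 CPM to 226, 214 and 209 CPM) and Psmd7. At any fold 19 were higher, where 23.3% of all genes were.

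The heat shock list had 1 of 23 genes higher (2 without siSlc25a26 replicate 3) and 2 lower. Hspa1b (LOC108348108 in the files), an inducible HSP70 chaperone, fell from 84.2, 64.6 and 71.8 CPM to 26.1, 25.9 and 21.6 CPM, with no overlap between the groups (log2 -1.58, adjusted p = 7.00e-06). Hsp90aa1 was higher by 1.51-fold, but under 1.5-fold without siNeg replicate 1 (log2 0.41) or siSlc25a26 replicate 1 or 2 (0.56 and 0.4985). Hspa1a, a near-identical copy with which it can share reads, measured 3.34, 3.87 and 4.25 CPM in siNeg and 0.526, 0 and 2.12 CPM in siSlc25a26, with replicate 3 of siSlc25a26 well above the others. Its log2 fold change of -2.13 became -3.86 without that library, and the call was lost without siNeg replicate 1 or 2 (log2 -2.22 and -2.13) or siSlc25a26 replicate 1 (-1.87). In the circadian clock list 3 of 21 genes were higher (Bhlhe41, Rora and Clock) and 1 lower (Per3). Rora and Clock were under 1.5-fold without siNeg replicate 1 (log2 0.54 and 0.57), and Per3 without siNeg replicate 3 (-0.57) or siSlc25a26 replicate 1 (-0.58). In the autophagy list 2 of 47 genes were higher, the receptor Optn and Atg12, where 8.92% of all genes were. Atg12 was under 1.5-fold without siNeg replicate 1 (log2 0.54). Among 30 immediate early genes 3 were higher (Atf3, Btg2 and Junb) and 1 lower (Nr4a3). Junb was under 1.5-fold without siNeg replicate 2 or 3 (log2 0.53 and 0.53) or siSlc25a26 replicate 2 (0.56), and the call of Nr4a3 was lost without siNeg replicate 2 (-0.68) or siSlc25a26 replicate 1 (-0.64). The number of immediate early genes called lower was 3 without siNeg replicate 3 and 4 without siSlc25a26 replicate 2. The RNA interference machinery, which siRNAs use, had 0 of 13 genes higher and 0 lower past 1.5-fold (1 higher without siNeg replicate 3).

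Over all genes with an official symbol and a mean of at least 1 CPM, the 10 largest fitted rises were in Tnfsf10, Ddx52, Hsh2d, Tmprss2, Apol11a, Zbp1, Mx1, Ifit3, Aim2 and Ddx60, although for genes at or near 0 in siNeg the fitted size depends on the prior count. Hsh2d, an adaptor of lymphocytes, measured 0, 0.0403 and 0.0383 CPM in siNeg and 21.6, 16.4 and 16.6 CPM in siSlc25a26, a ratio of 695 (95% interval 194 to 5814, counting error only). Tmprss2, a membrane serine protease, went from 0, 0.0403 and 0.0767 CPM to 25, 20.3 and 18.6 CPM. Ddx52, an RNA helicase, was at 0 counts in the 3 siNeg libraries and measured 2.63, 3.39 and 2.84 CPM in siSlc25a26, at least 25.3-fold higher, whereas it averaged 1.83 CPM in siNeg PE. The largest falls were smaller in size and, apart from Zbtb22 and Spp1, in genes at a few CPM. Zbtb22, a zinc-finger protein, fell 8.06-fold from 34.3, 31.4 and 32.9 CPM to 4.84, 2.51 and 4.88 CPM. Ednrb, the endothelin B receptor, fell 6.22-fold from 3.95, 4.23 and 3.76 CPM to 0.456, 0.780 and 0.682 CPM. Aldh3a1, Fabp4, Mustn1, Dpp4, Ddn, Sncg and Rin1 fell between 4.69-fold and 7.64-fold.

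The same contrast was set beside its value under PE, with the caveat on those labels given above. Under PE, 1054 of 13671 genes were higher in the libraries labelled siSlc25a26 PE (7.71%) and 1108 were lower (8.1%). Of the 1233 genes higher without PE, 581 were also higher under PE (47.1% of the first list and 55.1% of the second), and of the 996 lower, 466 were lower under PE (46.8% and 42.1%). The opposite direction was called under PE for 14 of the genes higher without PE and for 5 of those lower. The effect differed between the PE states past 1.5-fold for 778 of 14097 genes (5.52%) by edgeR's interaction test, with 471 lower and 307 higher under PE.

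The interferon genes were also higher under PE. Their effector list had a median log2 fold change of 3.91 (56 of 60 higher), the sensors 1.97, antigen presentation 2.80 and the interferon regulatory factors 1.36. The interaction was negative and called for 17 of the 61 effectors tested, and positive for 0. Mx1 rose by 8.44 without PE and 7.06 under PE, a difference of -1.39 (adjusted p = 0.0378), and RT1-S3 by 5.62 and 4.10, a difference of -1.53 (adjusted p = 0.000178). Ifnb1 averaged 0.226 CPM in siSlc25a26 PE and was too low to test there. The respiratory and ribosomal lists kept their sign, with medians under PE of -0.34 for complex I, -0.46 for complex IV, -0.41 for the large and -0.45 for the small ribosomal subunit.

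Some matrix and smooth muscle genes fell less under PE. Libraries without and under PE were scaled separately, so CPM values set side by side across PE states are not on one scale. The collagen and matrix list had a median of -0.40 under PE with 17 of 43 genes lower, and the interaction was positive and called for 11 of them and negative for 0. Col6a3 fell by 1.96 on the log2 scale without PE and fell by 0.95 under PE, a difference of 1.0 (adjusted p = 0.000153). It averaged 593 and 283 CPM in siNeg without and under PE, and 152 and 147 CPM in siSlc25a26. Acta2 had log2 fold changes of -0.99 and -0.09758, a difference of 0.88 (adjusted p = 0.00232). Its averages without and under PE were 1784 and 915 CPM in siNeg, and 897 and 855 CPM in siSlc25a26. Gja5 rose without PE (1.13) and had a log2 fold change of 0.11 under PE, and Aldoc had 0.79 without PE and -0.78 under PE, a difference of -1.58 (adjusted p = 0.000362). In the cell cycle list 25 of 50 genes were lower under PE (median -0.58) against 4 without PE, and the difference itself was called for 5. Nppb rose by 1.97 and 1.91 without and under PE, from 13.9 and 538 CPM in the controls, with a difference of -0.071 (adjusted p = 0.927).

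**Figure D5:**
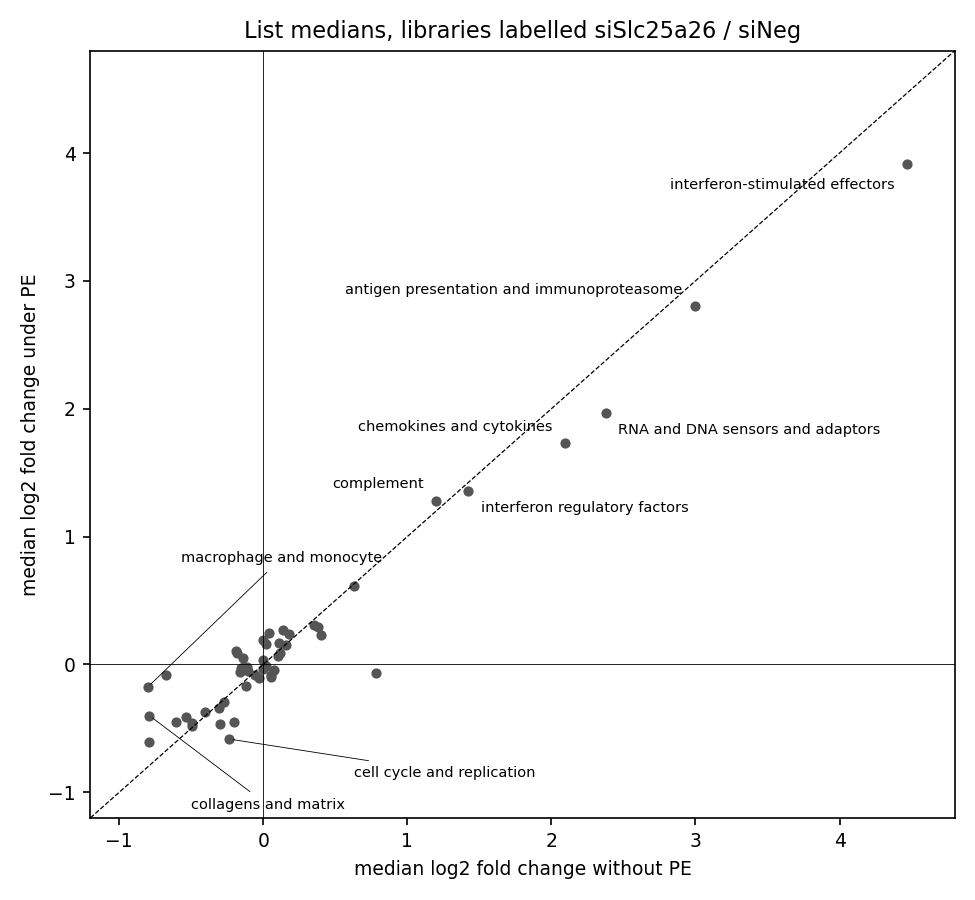
Median log2 fold change of each of the 51 gene lists with at least 5 genes tested, without PE (x axis) and under PE (y axis); the dashed line marks equal values. Interferon-stimulated effectors lie at 4.47 and 3.91, collagens and matrix at -0.79 and -0.40, and cell cycle genes at -0.24 and -0.58.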

How the data were processed

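RNA from neonatal rat ventricular myocytes was sequenced in 12 libraries, 3 per group, grouped by their labels. The deposited table holds, per gene and library, estimated counts made by the authors (20.79% to 21.86% of values were not whole) and their FPKM values, which the authors scaled by transcript length and library size. The submitters' processing notes name HISAT, Bowtie2 and the build Rnor_6.0, and the versions, the quantifier and whether counting used strand are not given in the sources used here. The design had assumed whole counts, so estimated counts were rounded to whole numbers. The published methods that name these data describe another siRNA and were not used.

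Genes were filtered with filterByExpr, scaled by TMM and fitted with edgeR's quasi-likelihood test (edgeR 4.0.16, R 4.3.3) on the 6 libraries without PE, with Benjamini-Hochberg adjustment over all genes tested. Every adjusted p is from such a fit, the PE libraries were fitted alone in the same way, and the difference between PE states is the interaction term over 12 libraries. Depth ran from 25415568 to 28709049 counts per library without PE, and 16103 to 16352 genes had counts in each. Ratios with 1 to 3 counts in siNeg carry an exact conditional binomial (Clopper-Pearson) 95% interval, which covers counting error only. Replicates differed by more than sampling noise (chi-square per gene 5.52 to 15.5), so none was counted as repeated. Same-numbered libraries did not deviate together (correlations of 0.042, -0.076 and 0.053), so replicate numbers were not treated as pairs.

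The comparison and the 47 pathway and 10 cell type marker lists were chosen with earlier results of these data known. Of 1547 list symbols, 47 were not matched in the table. From each pathway list up to 3 called rises and 3 called falls with the largest change were named, where the groups did not overlap and every library of the higher group had at least 10 counts. Where a list held no call, the member with the highest mean was named. Over all genes the 10 largest rises and falls with a mean of at least 1 CPM and the 5 largest of each in CPM were added. These 149 genes followed the rule, and other genes named, list members or neighbours, were chosen after their values were seen. Gene IDs were matched to RefSeq (assembly GRCr8) for 91.8% of 18469 rows, and its coordinates belong to the promoter table only, of which the first listed start of each gene was used. The fit was tested on simulated data. Results for some genes, and for 1 further promoter motif that was searched, are not reported here. Alternatives were DESeq2 1.42.0, limma-voom and limma 3.58.1 on log2(FPKM + 1) or log2(FPKM + 0.1), other scalings and filters, the replicate block, all 12 libraries, glmTreat and leaving out each library.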

Additional observations from a re-analysis of the deposited data

Results flagged for a closer look

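Each gene here was named above, and its response to siSlc25a26 differed between the PE states in edgeR's interaction test past 1.5-fold at an adjusted p under 0.05, as it did for 5.52% of all genes. Values are the log2 fold change under PE less that without PE, and 3 libraries stood in each group. Apart from Slc25a26, these genes were named for the size of their change without PE. That change also enters the difference, so the choice of genes favours smaller changes under PE.

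Slc25a26 itself differed by 1.06, having fallen without PE and averaged 98.6 CPM in siNeg PE and 98.2 CPM in siSlc25a26 PE. The part of this difference in the targeted gene in the values that follow was not tested. Interferon and antigen presentation genes gave -1.39 for Mx1, -1.13 for Ifit3, -1.12 for Ddx60, -1.03 for Socs1, -1.63 for RT1-T24-1 and -1.53 for RT1-S3. Chemokine, NF-kB and complement genes gave -3.88 for Cxcl6, -0.90 for Vcam1, -0.92 for Birc3, -1.70 for Cfb and -0.89 for C1s, while the difference was 1.05 for C1qa, a macrophage gene.

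In metabolism the differences were -0.62 for Slc25a28, -1.58 for Aldoc, 0.72 for Slc2a4, 0.66 for Pycr1, -0.62 for Gsta4 and 0.85 for Scd. In muscle and matrix genes they were 0.88 for Acta2, 1.06 for Myom2, -1.03 for Gja5, -0.97 for Chrm2, 1.04 for Col15a1 and 1.0 for Col6a3. Regulators gave -0.90 for Cdkn1c, -0.62 for Bhlhe41, -0.68 for Junb, 1.17 for Nr4a3 and 0.86 for Zbtb22. Fabp4, a fatty acid binding protein, gave 1.58. Ddx52 gave -7.91, a fitted value that depends on the prior count because Ddx52 had 0 counts in siNeg without PE and averaged 1.83 CPM in siNeg PE.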

How the results depend on the processing

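The 1233 genes higher and 996 lower without PE became 523 and 351 when edgeR tested against a 1.5-fold change itself (glmTreat), 832 and 452 by limma on log2(FPKM + 1), and 3223 and 2998 without a fold threshold. They ranged from 1032 to 1468 and from 877 to 1132 with 1 library left out, the highest of both without siNeg replicate 3. The other alternatives gave counts within 1.5 times. Higher genes were 55.3% of calls with TMM, 62.5% when libraries were scaled by their totals (856 lower, all among the 996), and 64.8% by limma on log2(FPKM + 1). The log2 fold change of Slc25a26 without PE ran from -1.15 to -1.04 with 1 library left out. A replicate block in the model gave 1206 rises and 945 falls, 1175 and 928 of them shared with the unblocked fit, and it changed no call of a named gene. For the difference of the knockdown effect between PE states the block gave 947 genes in place of 778, and DESeq2 gave 782. Of 2647 values of named genes over 18 alternatives, 2503 kept their direction and side of the threshold, 139 lost the call (59 under glmTreat and 22 by limma on log2(FPKM + 1)), 5 gained it and 0 reversed. List medians near 0 changed sign under at least 1 alternative for mitochondrial SAM users, mTOR, PGC-1 regulators, tRNA synthetases, sarcomere, autophagy and immediate early genes. So did the medians of lymphocyte, neutrophil and mast cell, and erythroid markers, with only 2, 1 and 1 genes tested. The erythroid median went from 7.494 to -1.665 by DESeq2 and to -1.421 without the filter. Genes under the floor of 3 counts per library could not be given a fold.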

Other observations

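Genes beside some of the largest changes are given here by their order in the RefSeq annotation and as values only. Whether counting used strand is not given in the sources used here, and sharing of reads between overlapping genes was not tested.

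Zbtb22, the largest of the named falls, lies between Tapbp (35.98 to 279 CPM, log2 2.95) and Daxx (34.2 to 73.8 CPM, log2 1.11), both higher in siSlc25a26, with Rgl2 nearby (88.9 to 229.6 CPM, log2 1.37). Tapbp encodes tapasin, which loads peptides onto MHC class I. Tmprss2 lies beside Mx2, with Mx1 beyond Fam3b. Apol11a, an apolipoprotein L, lies near Apol9a (log2 4.43) and Apol3 (log2 4.98), and Ifit3 by Ifit2 (log2 3.39) and Ifit1bl (log2 3.71). Aim2 lies by Mnda (log2 2.38), of the same family of DNA-binding proteins, and B2m next to Trim69 (log2 2.75).

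In other places neighbours moved in opposite directions. Dpp4, a peptidase that fell, lies next to its homologue Fap (log2 -1.64) and close to the RNA sensor Ifih1, which rose (log2 4.22). Fas, which rose, lies next to Acta2, which fell (log2 -0.99). On one side of Slc25a26 lie Lrig1 (log2 0.23, not past 1.5-fold) and then Kbtbd8, which rose at a low level (0.401 to 0.827 CPM, log2 1.03), and on the other LOC100361920 (log2 -0.4987, not called) and then Magi1 (log2 0.47, not past 1.5-fold).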
